A study of Mus musculus with 6 samples.

Results

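The genes described here are the chemokines and chemokine receptors measured on mouse whole-transcript arrays. They are the genes whose annotated symbol begins with Ccl, Cxcl, Ccr or Cxcr followed by a digit, each read from the brightest probe set that carries only that symbol. The rule found 48 of the 19937 genes measured: 32 ligands, of which 19 are Ccl and 13 are Cxcl genes, and 16 receptors, of which 10 are Ccr and 6 are Cxcr genes. Levels are log2 intensities of single probe sets, so they can be compared between arrays for a gene but not between genes.

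All arrays carried RNA of Thy1.2+ cells from E17.5 Rag1-/- mouse fetal thymi, purified with magnetic beads, and each of the 3 groups had 2 arrays. The first group (79-6) came from thymi exposed to anti-CD3 plus 50 µM 79-6 during 40 h. The second (DMSO) was exposed to anti-CD3 plus the vehicle DMSO for the same 40 h, and the third (fresh) came from thymi that were neither cultured nor stimulated. Every group, the controls included, lacks Rag1, so T cell receptor genes are not rearranged, thymocytes stop before the pre-T cell receptor checkpoint, and antibody to CD3 stands in for the missing receptor signal. The compound 79-6 is a small molecule that binds the repressor Bcl6 at its BTB domain. The series design describes the cultures as fetal thymic organ cultures, in which stroma and blood-derived cells of the thymus stay beside the thymocytes. The comparison of 79-6 with DMSO asks what the compound changed in stimulated cells. The comparison of DMSO with fresh cells holds anti-CD3, culture, elapsed time and vehicle together, and these cannot be told apart. The labels do not say that replicates came from separate litters or cultures, and p-values therefore rest on the spread of these arrays alone, which may be technical.

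Chemokines are small secreted proteins that bind G protein-coupled receptors and draw cells along a gradient. In the thymus, epithelial cells make Ccl25 and Cxcl12, whose receptors Ccr9 and Cxcr4 act on immature thymocytes, while Ccr7 with its ligands Ccl19 and Ccl21 guides progenitor entry and the later move of selected thymocytes into the medulla. Inflammatory chemokines form further groups: the interferon-induced ligands of Cxcr3, the monocyte attractants that bind Ccr2, the ligands of Ccr1, and the neutrophil attractants that bind Cxcr2.

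A level was called above background where it exceeded the 95th percentile of the 1192 olfactory and vomeronasal receptor genes on the same array, which lay between log2 5.78 and 5.98 on the 6 arrays. By this measure 39 of the 48 chemokine and receptor genes were above background on both arrays of at least 1 group (81.2%, against 70.5% of all genes), with 39 in 79-6, 36 in DMSO and 37 in fresh cells, and 34 in all 3 groups. The other 9 were not above background on both arrays of any group: the ligands Ccl20, Ccl26, Ccl28, Cxcl5, Cxcl14 and Cxcl15 and the receptors Ccr1l1, Ccr6 and Cxcr5. Their log2 intensities ran between 4.0 and 5.99. Array medians were 99.3 to 103.6 in intensity units, and the number of arrays limits the precision. The 13 T-lineage genes measured were all above background in every group, and Thy1 itself averaged log2 13.07 in 79-6, 13.23 in DMSO and 12.80 in fresh cells. This does not measure the purity of the Thy1.2+ cells, since all 16 thymic epithelial genes measured were also above background in at least 1 group.

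**Figure D1:**
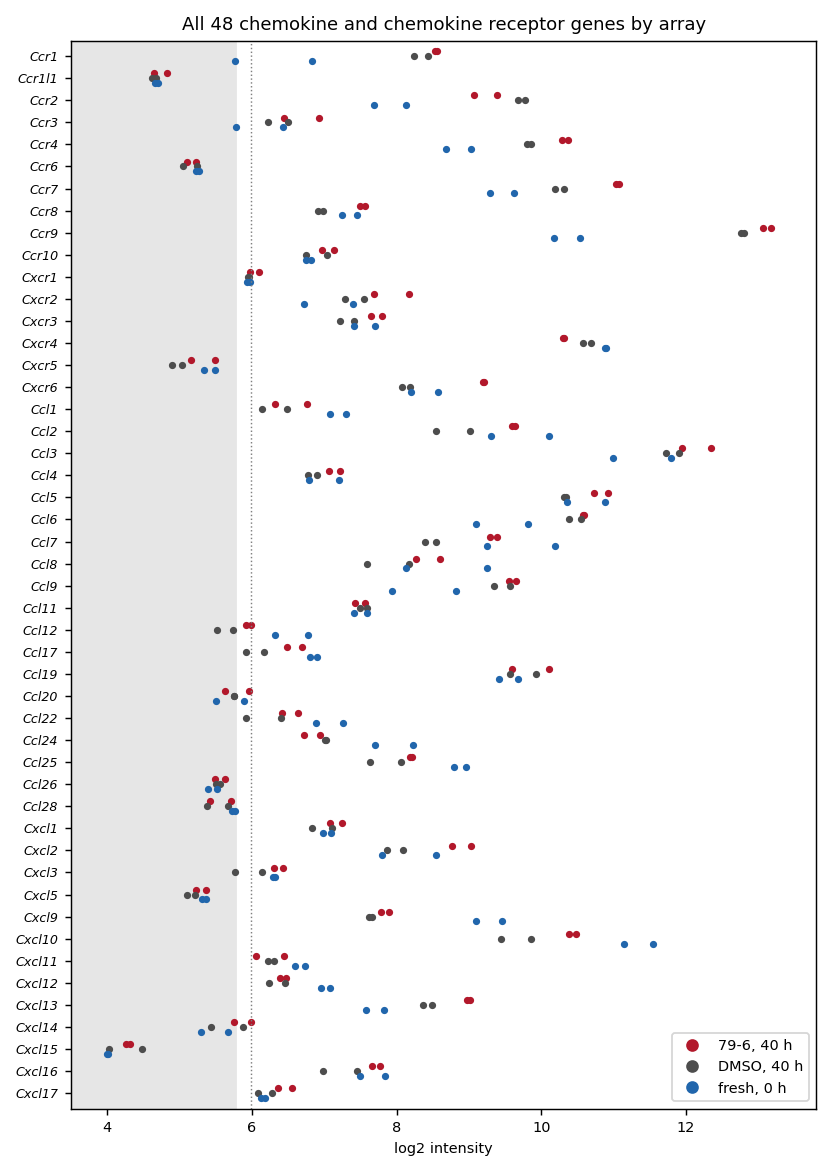
Log2 intensity of the 48 chemokine and receptor genes, 1 row a gene, with 1 point for each of the 6 arrays coloured by group (79-6, DMSO, fresh). The grey area marks levels below the background level: 39 genes have both arrays of at least 1 group above it, and 9 do not.

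In 79-6 against DMSO, 6 of the 48 genes were higher and 0 were lower at an adjusted p under 0.05 (limma, moderated tests adjusted over all 19937 genes). That is 12.5% of the family, where 4.36% of all genes were called in either direction. The receptors Cxcr6, Ccr7 and Ccr8 rose, and so did the ligands Cxcl10, Cxcl13 and Ccl17. The median change of the 48 genes was 0.28 on the log2 scale, against 0.02 for all genes. At an unadjusted p under 0.05, 18 were higher and 2 lower. All 6 calls depended on the arrays compared: without 79-6 replicate 2, DMSO replicate 1 or DMSO replicate 2 none of the 48 genes was called (0.637%, 0.567% and 0.466% of all genes were), and without 79-6 replicate 1 only Cxcr6 and Ccr8 were. With only the 4 arrays of these groups in the fit, 10 were called, where 3.16% of all genes were. Of the 6 only Ccl17 was lost then. In bulk samples like these, fewer cells of a type and less RNA per cell cannot be told apart.

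In DMSO against fresh cells, 22 of the 48 genes were called, 8 higher and 14 lower, or 45.8% where 19.6% of all genes were called. The receptors Ccr9, Ccr1, Ccr2, Ccr4 and Ccr7 rose, while 11 of the 14 genes that fell were ligands, led by Cxcl10 and Cxcl9. The median change was -0.17 for the 48 genes and 0.02 for all genes. In 79-6 against fresh cells 18 were called, 10 higher and 8 lower (37.5%, where 26.0% of all genes were called), with medians of 0.10 and 0.05. The 3 comparisons share arrays, so they are not independent of each other, and 24 genes were called in none of them.

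**Figure D2:**
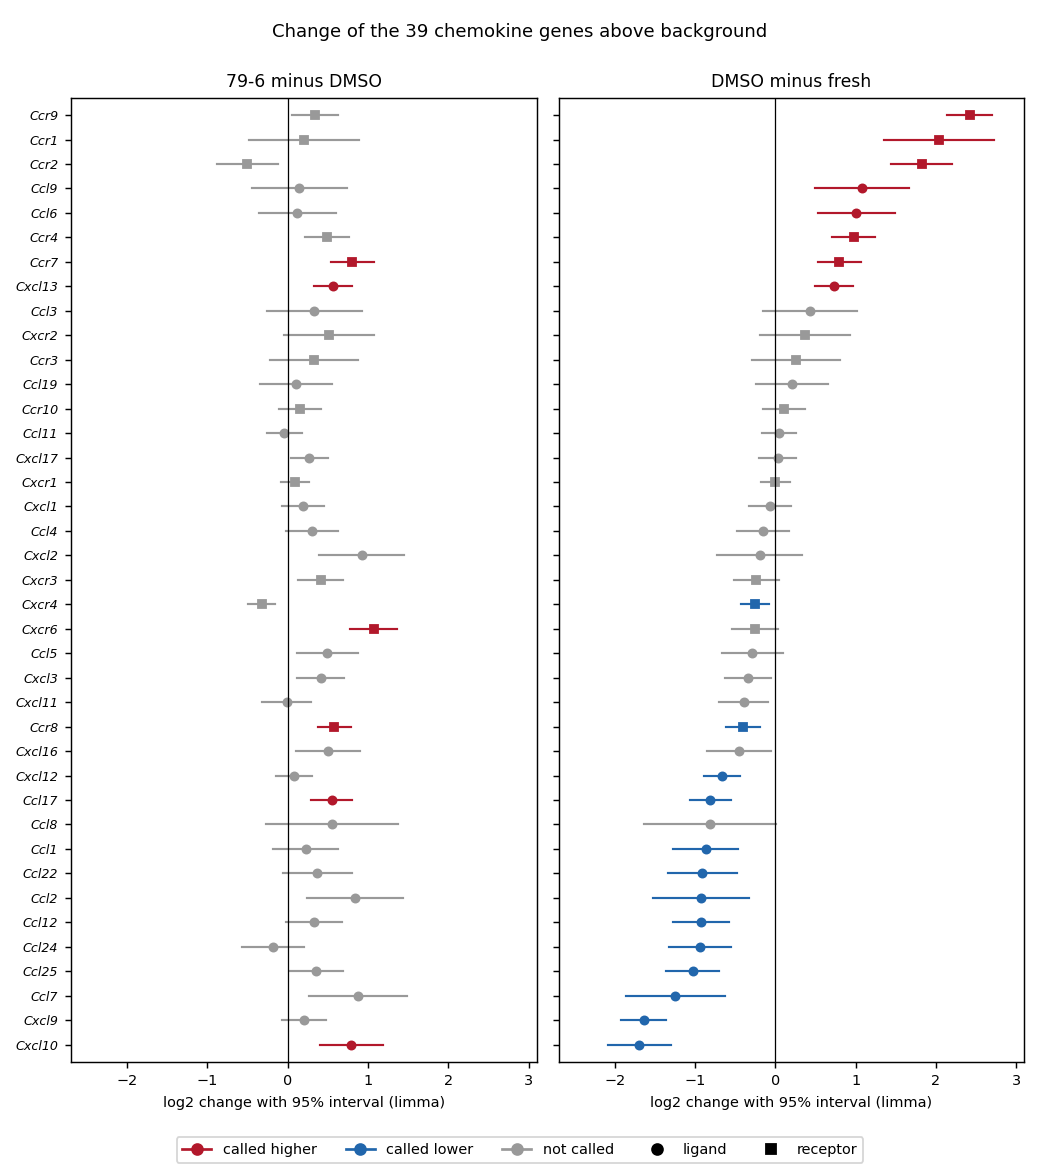
Log2 change with its 95% limma interval for the 39 genes above background in at least 1 group, 79-6 minus DMSO in the left panel and DMSO minus fresh in the right. Circles are ligands, squares are receptors, red is called higher, blue called lower and grey not called; the 6 calls on the left are all higher, and Ccr9 lies farthest right and Cxcl10 farthest left in the right panel.

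Split by role, receptors and ligands were called in different numbers. Of the 16 receptors, 3 were higher and 0 lower in 79-6 against DMSO, 5 were higher and 3 lower in DMSO against fresh cells, and 7 were higher and 1 lower in 79-6 against fresh cells. Of the 32 ligands, the matching counts were 3 and 0, 3 and 11, and 3 and 7. Among all genes, 2.38% were called higher and 1.98% lower in 79-6 against DMSO, 8.89% and 10.7% in DMSO against fresh cells, and 12.0% and 13.9% in 79-6 against fresh cells. Whether receptors differ from ligands was not tested.

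Among the receptors that guide thymocytes, Ccr9, the receptor of Ccl25, showed the largest change of the 48 genes. Its log2 intensity was 13.06 and 13.17 in 79-6, 12.76 and 12.79 in DMSO and 10.18 and 10.54 in fresh cells. Both cultured groups lay far above the fresh cells, without overlap. The level was 5.35-fold higher in DMSO than in fresh cells (log2 change 2.42 ± 0.12 SE, adjusted p = 2.88e-05) and 6.77-fold higher in 79-6 than in fresh cells (adjusted p = 1.56e-05). Between 79-6 and DMSO the change of 0.34 ± 0.12 was not called (adjusted p = 0.171).

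Ccr7, the receptor of Ccl19 and Ccl21, was called higher in all 3 comparisons. It read 11.07 and 11.04 in 79-6, 10.19 and 10.32 in DMSO and 9.29 and 9.62 in fresh cells, and no 2 groups overlapped. Its level was 1.74-fold higher in 79-6 than in DMSO (0.80 ± 0.11, adjusted p = 0.0163), and in DMSO it exceeded the fresh cells 1.74-fold as well (adjusted p = 0.00293). In 79-6 against fresh cells it was 3.02-fold higher (adjusted p = 0.000116). The call against DMSO was lost without either 79-6 array or either DMSO array, with adjusted p between 0.0503 and 0.103.

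Ccr4 binds Ccl17 and Ccl22 and is known on thymocytes that have passed selection. Its log2 intensity was 10.36 and 10.28 in 79-6, 9.85 and 9.80 in DMSO and 9.03 and 8.68 in fresh cells, again without overlap. It was 1.96-fold higher in DMSO than in the fresh state (0.97 ± 0.12, adjusted p = 0.00129) and 2.76-fold higher in 79-6 than in fresh cells (adjusted p = 0.00018). The further change of 0.49 ± 0.12 in 79-6 against DMSO missed the threshold (adjusted p = 0.0629). It passed with only the 4 arrays of these groups in the fit or without either fresh array (0.0318), with trend and robust settings (0.0155) and among genes above background alone (0.0494).

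Cxcr4, the receptor of Cxcl12, moved the other way by a small amount. It read 10.30 and 10.32 in 79-6, 10.58 and 10.69 in DMSO and 10.90 and 10.88 in fresh cells. The groups stood apart in that order, 79-6 lowest. The level was 1.49-fold lower in 79-6 than in fresh cells (-0.58 ± 0.07, adjusted p = 0.00127) and 1.19-fold lower in DMSO than in fresh cells (-0.26 ± 0.07, adjusted p = 0.0475), a call that was lost whichever array was left out (adjusted p between 0.0562 and 0.224). In 79-6 against DMSO the change was -0.32 ± 0.07 (adjusted p = 0.0553), and it passed with equal array medians, quantile normalization, trend and robust settings, or genes above background alone (0.00833 to 0.0499).

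**Figure D3:**
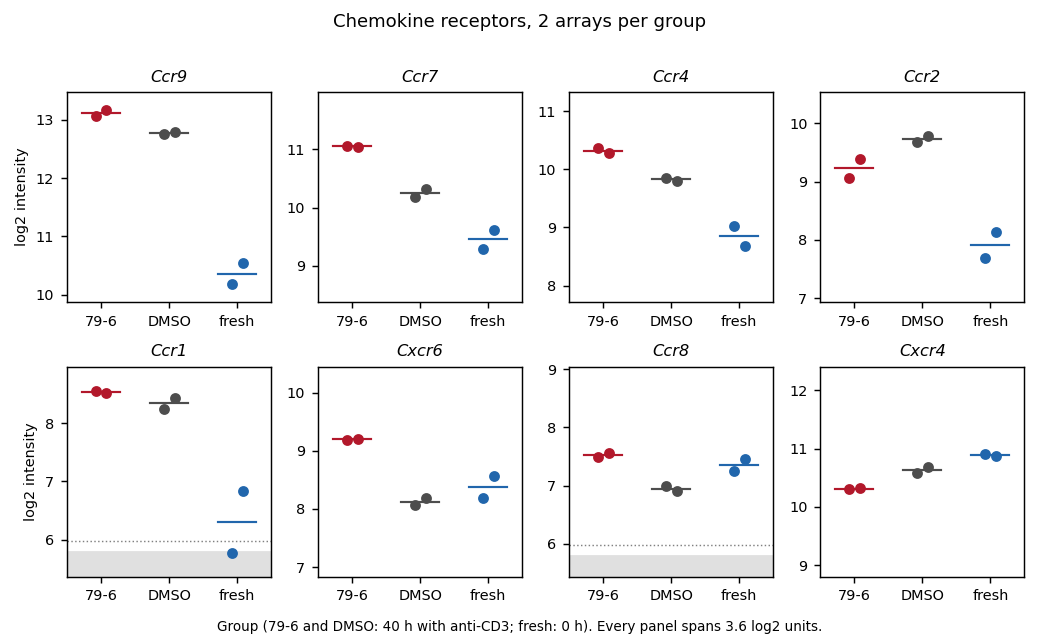
Log2 intensity of 8 chemokine receptors by group, 79-6, DMSO and fresh from left to right; points are arrays, lines are group means of 2 arrays, the grey area is below the background level and every panel spans the same range. Ccr9, Ccr7 and Ccr4 are lowest in fresh cells, Cxcr6 and Ccr8 stand apart in 79-6 from DMSO, and Cxcr4 is lowest in 79-6.

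Cxcr6, the receptor of the transmembrane ligand Cxcl16, is known on natural killer T cells, innate lymphoid cells and activated T cells. It had the largest change of the family between 79-6 and DMSO. Its log2 intensity was 9.19 and 9.20 in 79-6, 8.07 and 8.18 in DMSO and 8.20 and 8.57 in fresh cells, so 79-6 lay above all other arrays. DMSO and fresh cells differed by -0.26, which was not called (adjusted p = 0.214). The level was 2.10-fold higher in 79-6 than in DMSO (1.07 ± 0.12, adjusted p = 0.00822) and 1.76-fold higher than in fresh cells (adjusted p = 0.003). Without 79-6 replicate 2 or either DMSO array its adjusted p against DMSO was 0.0631 to 0.0717, with a change that stayed between 1.01 and 1.12.

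Ccr8, which binds Ccl1, read 7.49 and 7.56 in 79-6, 6.99 and 6.91 in DMSO and 7.25 and 7.45 in fresh cells. The DMSO arrays were the lowest, and 79-6 and fresh cells lay close together. Ccr8 was higher in 79-6 than in DMSO (0.58 ± 0.09, adjusted p = 0.0197) and 1.32-fold lower in DMSO than in fresh cells (adjusted p = 0.0187). The first call was lost without 79-6 replicate 2 or either DMSO array (adjusted p 0.0937 to 0.133), the other without either DMSO array or fresh replicate 2 (0.0640 to 0.120).

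Genes that mark natural killer and innate lymphoid cells rose as well in 79-6 against DMSO. Of 14 such genes, 5 were higher and 1 lower in 79-6 against DMSO, among them the granule genes Nkg7 (1.12) and Gzmb (1.13) and the receptor gene Klrd1 (0.97). In DMSO against fresh cells 1 was higher and 8 were lower (median -0.44), where Ccr8 was called lower and Cxcr6 was not called. In 79-6 against fresh cells 4 were higher and 2 lower (median 0.04), where Cxcr6 was called higher and Ccr8 was not called. Their intensities summed to 13093 and 13028 in 79-6, 10865 and 10617 in DMSO and 14041 and 16185 in fresh cells. By median log2 level 79-6 was highest, at 8.20 and 8.13, against 7.46 and 7.38 in DMSO and 7.71 and 8.03 in fresh cells. Their part in the values of Cxcr6 and Ccr8 was not tested.

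The receptors known from monocytes and macrophages rose with culture. Ccr1 read 8.56 and 8.52 in 79-6 and 8.24 and 8.44 in DMSO, against 5.77 and 6.83 in fresh cells, where it was above background on 1 array. The fresh arrays lay below all cultured arrays and differed from each other by more than the cultured ones did. Ccr1 was 4.11-fold higher in DMSO than in the fresh state (2.04 ± 0.29, adjusted p = 0.00295) and 4.72-fold higher in 79-6 than in fresh cells (adjusted p = 0.00157).

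Ccr2, the receptor of Ccl2, Ccl7 and Ccl12, read 9.06 and 9.39 in 79-6, 9.68 and 9.78 in DMSO and 7.69 and 8.13 in fresh cells. Fresh cells were lowest and DMSO highest. The level was 3.53-fold higher in DMSO than in the fresh state (1.82 ± 0.16, adjusted p = 0.000343) and 2.49-fold higher in 79-6 than in fresh cells (adjusted p = 0.00115). In 79-6 against DMSO it changed by -0.50 ± 0.16, which was not called (adjusted p = 0.138).

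Cxcr2, the neutrophil receptor of Cxcl1, Cxcl2 and Cxcl3, read 7.69 and 8.17 in 79-6, 7.29 and 7.55 in DMSO and 6.72 and 7.39 in fresh cells. Only 79-6 against fresh cells was called (0.88 ± 0.24, 1.84-fold higher, adjusted p = 0.033), and that call was lost without 79-6 replicate 2, either DMSO array or fresh replicate 1 (adjusted p 0.0520 to 0.166). Markers of macrophages and dendritic cells also rose. Of 18 measured, 2 were higher and 0 lower in 79-6 against DMSO (Itgax 1.14 and C1qa 0.98, median 0.44), where none of these 3 receptors was called and Ccr2 had a negative change. In DMSO against fresh cells 5 were higher and 0 lower, led by Lyz2 (3.88), Adgre1 (1.63) and Itgam (1.55), and 13 were higher and 0 lower in 79-6 against fresh cells. At an unadjusted p under 0.05 none of the 18 was lower in any comparison, and 8 were higher in 79-6 against DMSO. Their summed intensity was 26269 and 29000 in 79-6, 19645 and 21397 in DMSO and 7561 and 10998 in fresh cells. Of the 18, the dendritic cell marker Clec9a was not above background in any group. Of 15 granulocyte and mast cell genes, 1 was higher and 3 were lower in 79-6 against DMSO. In DMSO against fresh cells, 6 were higher and 1 lower. Their intensities summed to 6861 and 8851 in 79-6, 5882 and 5788 in DMSO and 4259 and 4904 in fresh cells. By median log2 level DMSO was highest, at 8.16 and 8.01, against 7.71 and 7.84 in 79-6 and 6.93 and 7.43 in fresh cells. With the median log2 level of the 18 macrophage and dendritic genes as a covariate, an alternative chosen after the data were seen, 2 of the 48 chemokine and receptor genes were called higher and 7 lower in DMSO against fresh cells (1.82% of all genes were called), and 0 were called in 79-6 against DMSO (0.196%). That median did not overlap between the groups, so the level of these markers and the group cannot be told apart.

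The remaining receptors above background were called in no comparison. Cxcr3, the receptor of Cxcl9 and Cxcl10, read 7.65 and 7.80 in 79-6, 7.42 and 7.22 in DMSO and 7.41 and 7.70 in fresh cells. For Ccr10, which binds Ccl27 and Ccl28, the values were 6.97 and 7.13 in 79-6, 7.04 and 6.75 in DMSO and 6.82 and 6.75 in fresh cells. Ccr3, the eotaxin receptor, read 6.45 and 6.93 in 79-6, 6.22 and 6.50 in DMSO and 5.79 and 6.43 in fresh cells, with 1 fresh array above background. Levels of these 3 genes overlapped between at least 2 of the groups. Cxcr1, another neutrophil receptor, stayed between 5.93 and 6.10 on all arrays, just above background. Cxcr5, the receptor of Cxcl13, was not above background on any array (5.17 and 5.49 in 79-6, 5.03 and 4.90 in DMSO, 5.33 and 5.49 in fresh cells). Its call as lower in DMSO than in fresh cells (adjusted p = 0.0412) therefore lies below the level at which a fold can be given, and it was lost without any 1 DMSO or fresh array (0.0759 to 0.202).

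The interferon-induced ligands Cxcl10 and Cxcl9 fell most of all ligands in DMSO against fresh cells. Both bind Cxcr3 and lie next to each other in the genome. The 250 bases before the start site of each are shown because the genes fell together in culture but were called differently between 79-6 and DMSO. The sequences are from RefSeq (GRCm38.p6), 5′ to 3′ on the gene's strand, chr5:92348890-92349139 (minus strand) for Cxcl10 and chr5:92328080-92328329 (minus strand) for Cxcl9. Capitals mark matches to 2 motifs searched on both strands: GAAANNGAA, the core of the interferon-stimulated response element, and GGGANTTCC, a form of the site of NF-kB factors.
Cxcl10: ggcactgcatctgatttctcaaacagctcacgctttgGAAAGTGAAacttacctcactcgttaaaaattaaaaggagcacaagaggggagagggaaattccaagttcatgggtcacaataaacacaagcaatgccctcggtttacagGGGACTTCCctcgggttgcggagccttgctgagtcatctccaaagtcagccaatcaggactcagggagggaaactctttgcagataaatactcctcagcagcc
Cxcl9: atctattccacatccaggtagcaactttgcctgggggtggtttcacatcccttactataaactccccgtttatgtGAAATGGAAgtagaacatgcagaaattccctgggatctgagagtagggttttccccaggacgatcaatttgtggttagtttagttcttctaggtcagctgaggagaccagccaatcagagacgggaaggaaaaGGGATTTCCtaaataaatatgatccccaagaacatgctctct
Each window holds 1 match to each motif, and the matches do not overlap. The first motif is in 7.13% of all 32851 windows of this length in the table and the second in 1.43%. In forms of the motifs that are 1 base longer, which were searched first, the Cxcl10 window still matched both and the Cxcl9 window matched neither, while 2.98% and 0.98% of all windows did. A match is a description of the letters and does not show binding.

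Cxcl10 had a log2 intensity of 10.39 and 10.48 in 79-6, 9.85 and 9.44 in DMSO and 11.14 and 11.54 in fresh cells. The groups did not overlap, with 79-6 between the other two. The level was 1.73-fold higher in 79-6 than in DMSO (0.79 ± 0.17, adjusted p = 0.0477), 3.24-fold lower in DMSO than in fresh cells (-1.69 ± 0.17, adjusted p = 0.000564) and 1.87-fold lower in 79-6 than in fresh cells (adjusted p = 0.00691). The call between 79-6 and DMSO was lost when any array of these groups was left out (adjusted p 0.0834 to 0.207) or with trend and robust settings (0.0646).

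Cxcl9 read 7.79 and 7.89 in 79-6, 7.65 and 7.62 in DMSO and 9.10 and 9.46 in fresh cells. Both cultured groups lay below the fresh cells. It was 3.12-fold lower in DMSO than in fresh cells (-1.64 ± 0.12, adjusted p = 0.000141) and 2.72-fold lower in 79-6 than in fresh cells (adjusted p = 0.000211). Between 79-6 and DMSO the change was 0.20 with a 95% interval of -0.08 to 0.48 (adjusted p = 0.398). The difference between the changes of Cxcl10 and Cxcl9 was not tested. Cxcl11, the other Cxcr3 ligand, was called in no comparison, at 6.05 and 6.44 in 79-6, 6.22 and 6.31 in DMSO and 6.59 and 6.73 in fresh cells.

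Other interferon-stimulated genes moved in the same directions as Cxcl10. Of 19 measured, 18 were lower and 0 higher in DMSO against fresh cells (median -1.31), led by Mx2 (-2.08), Oasl2 (-1.97) and Ifih1 (-1.84), and 6 were higher and 0 lower in 79-6 against DMSO (median 0.34), with Ifit3 (0.80) and Rsad2 (0.73) among them. At an unadjusted p under 0.05, 0 were higher in DMSO against fresh cells and 0 were lower in 79-6 against DMSO. Their summed intensity was 23311 and 25631 in 79-6, 18688 and 18385 in DMSO and 43183 and 46778 in fresh cells.

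**Figure D4:**
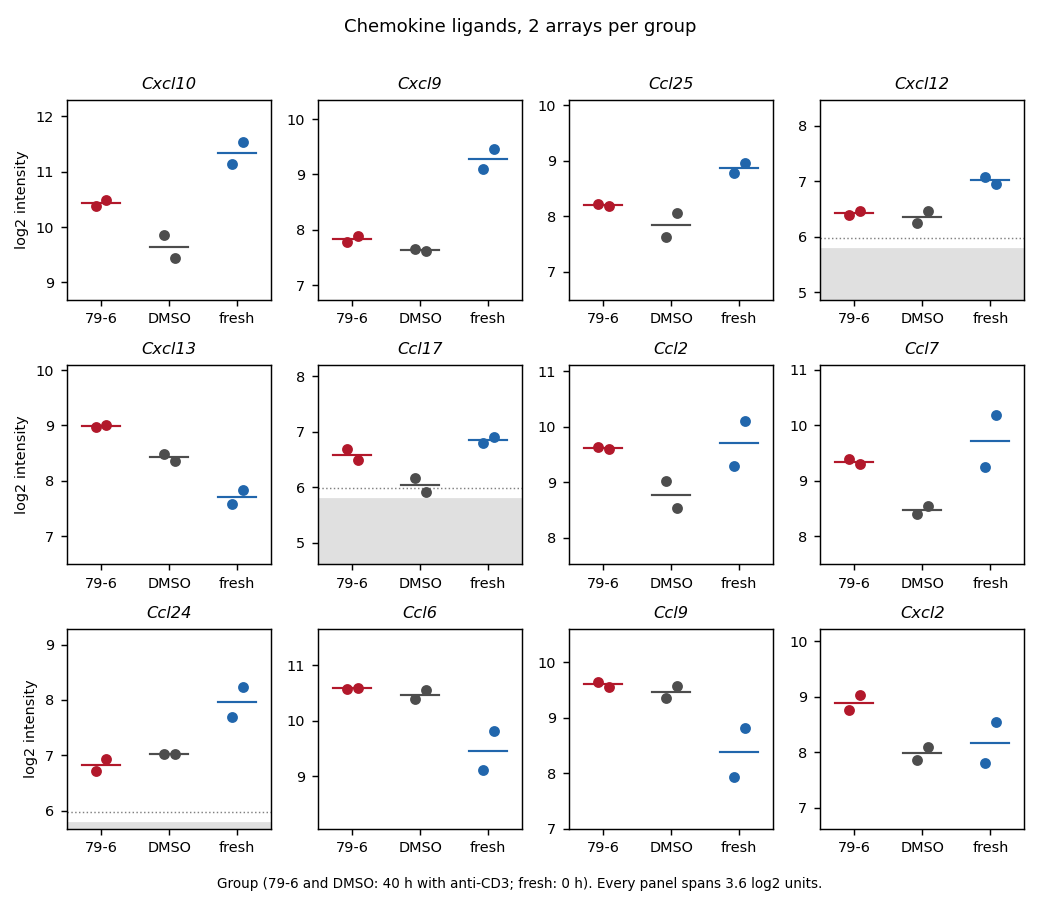
Log2 intensity of 12 chemokine ligands by group, 79-6, DMSO and fresh from left to right; points are arrays, lines are group means of 2 arrays, the grey area is below the background level and every panel spans the same range. Cxcl10, Cxcl9, Ccl25, Cxcl12 and Ccl24 are highest in fresh cells, and Cxcl13, Ccl6 and Ccl9 are lowest there.

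Of the ligands that thymic epithelium is known to make, Cxcl12 and the brightest probe set of Ccl25 were called lower in both cultured groups than in fresh cells. Ccl25, the ligand of Ccr9, read 8.22 and 8.19 in 79-6, 7.63 and 8.06 in DMSO and 8.79 and 8.96 in fresh cells, which lay above all cultured arrays. It was 2.04-fold lower in DMSO than in fresh cells (-1.03 ± 0.14, adjusted p = 0.0023) and 1.60-fold lower in 79-6 than in fresh cells (adjusted p = 0.0113), a call that was lost without 79-6 replicate 2 (0.0558) or fresh replicate 2 (0.0654). A dimmer probe set of the same gene did not show this (7.55 and 7.52 in 79-6, 7.54 and 7.74 in DMSO, 7.74 and 7.62 in fresh cells), and it was called in no comparison.

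Cxcl12, the ligand of Cxcr4, read 6.39 and 6.47 in 79-6, 6.24 and 6.46 in DMSO and 7.08 and 6.95 in fresh cells. It was 1.59-fold lower in DMSO than in fresh cells (-0.66 ± 0.10, adjusted p = 0.00314) and 1.5-fold lower in 79-6 than in fresh cells (adjusted p = 0.00436), and the 2 cultured groups overlapped. For Ccl19, a ligand of Ccr7, the values were 9.59 and 10.11 in 79-6, 9.93 and 9.57 in DMSO and 9.41 and 9.67 in fresh cells, with overlap between groups. Neither this probe set nor any of its 3 dimmer ones was called. A probe set shared by the Ccl21 genes, outside the rule because it carries several symbols, read 8.68 and 8.55 in 79-6, 8.57 and 9.42 in DMSO and 9.23 and 9.38 in fresh cells and was not called either.

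Epithelial markers moved with Ccl25 and Cxcl12. Of 16 measured, 13 were lower and 0 higher in DMSO against fresh cells, led by Cdh1 (-2.34), Tbata (-1.66) and Krt5 (-1.57), with 0 higher at an unadjusted p under 0.05 too. Their summed intensity was 6401 and 6201 in 79-6, 4945 and 7016 in DMSO and 14734 and 15052 in fresh cells, and their part in the fall of these ligands was not tested.

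Cxcl13, the ligand of Cxcr5 and a B cell attractant, was called higher in all 3 comparisons. It read 8.97 and 9.02 in 79-6, 8.49 and 8.37 in DMSO and 7.58 and 7.83 in fresh cells, and no 2 groups overlapped. The level was 1.48-fold higher in 79-6 than in DMSO (0.57 ± 0.10, adjusted p = 0.0299) and in DMSO it exceeded the fresh cells 1.65-fold (adjusted p = 0.0025), while it was 2.45-fold higher in 79-6 than in fresh cells (adjusted p = 0.000165). The first of these calls was lost without any 1 array of 79-6 or DMSO (adjusted p 0.0658 to 0.169). Ccr7 was the only other gene of the 48 called higher in all 3 comparisons.

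The Ccr4 ligands Ccl17 and Ccl22 and the Ccr8 ligand Ccl1 were called lower in DMSO than in fresh cells. Ccl17, which binds Ccr4, read 6.69 and 6.49 in 79-6, 6.17 and 5.92 in DMSO and 6.80 and 6.90 in fresh cells. It was lowest in DMSO, without overlap. The level was 1.46-fold higher in 79-6 than in DMSO (0.54 ± 0.11, adjusted p = 0.0437), a call that was lost whichever array of the 6 was left out (adjusted p 0.0638 to 0.201), and 1.75-fold lower in DMSO than in fresh cells (adjusted p = 0.00237).

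Ccl22, its neighbour in the genome and another Ccr4 ligand, read 6.42 and 6.63 in 79-6, 5.91 and 6.41 in DMSO and 6.89 and 7.26 in fresh cells. It was 1.88-fold lower in DMSO than in fresh cells (-0.91 ± 0.18, adjusted p = 0.0128), with 1 DMSO array above background, and was not called between 79-6 and DMSO (adjusted p = 0.32). Ccl1, a ligand of Ccr8, read 6.31 and 6.76 in 79-6, 6.49 and 6.14 in DMSO and 7.30 and 7.07 in fresh cells. It was 1.83-fold lower in DMSO (adjusted p = 0.0122) and 1.57-fold lower in 79-6 (adjusted p = 0.031) than in fresh cells. Without DMSO replicate 2 or fresh replicate 1 the first of these missed the threshold (0.0773 and 0.0701), and without 79-6 replicate 1 or either fresh array the other did (0.0537 to 0.149). Leaving out DMSO replicate 1 or fresh replicate 2 ended the Ccl22 call (adjusted p = 0.0649 and 0.0688).

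The Ccl17 window is shown with those of Cxcr6 and Ccr9, the receptors with the largest changes against DMSO and against fresh cells. A further motif, TTCNNNGAA, was searched because factors of the STAT family and Bcl6 bind sites of this form, and capitals mark its match. The positions are chr8:94810203-94810452 (plus strand) for Ccl17, chr9:123806227-123806476 (plus strand) for Cxcr6 and chr9:123766961-123767210 (plus strand) for Ccr9 (RefSeq, GRCm38.p6, 5′ to 3′).
Ccl17: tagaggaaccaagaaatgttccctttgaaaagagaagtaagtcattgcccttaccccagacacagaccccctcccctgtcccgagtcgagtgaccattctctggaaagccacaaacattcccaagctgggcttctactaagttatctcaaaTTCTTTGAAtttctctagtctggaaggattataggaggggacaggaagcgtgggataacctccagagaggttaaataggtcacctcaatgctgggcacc
Cxcr6: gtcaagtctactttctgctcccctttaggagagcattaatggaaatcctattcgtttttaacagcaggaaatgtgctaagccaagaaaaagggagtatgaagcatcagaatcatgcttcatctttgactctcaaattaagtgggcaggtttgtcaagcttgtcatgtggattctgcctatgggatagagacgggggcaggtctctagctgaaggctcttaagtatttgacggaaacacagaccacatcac
Ccr9: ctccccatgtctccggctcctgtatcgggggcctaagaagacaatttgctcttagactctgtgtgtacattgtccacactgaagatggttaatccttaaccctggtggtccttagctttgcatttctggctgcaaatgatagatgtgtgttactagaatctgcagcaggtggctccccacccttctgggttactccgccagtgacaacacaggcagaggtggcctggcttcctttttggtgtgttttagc
The Ccl17 window holds 1 match to this motif, while the Cxcr6 and Ccr9 windows hold none of the 3 motifs in these letters. Windows were found for 34 of the 48 genes. Of these, 4 held TTCNNNGAA (Ccl17, Ccr1l1, Ccr6 and Cxcl14), as did 7.02% of all windows. Of the 4, Ccr1l1, Ccr6 and Cxcl14 were called in no comparison and were not above background on both arrays of any group. Whether Bcl6 or a STAT factor acts at Ccl17 was not tested. The interferon motif was found in 8 genes (Ccl1, Ccl3, Ccl19, Ccr2, Cxcl9, Cxcl10, Cxcl14 and Cxcr1) and the NF-kB motif in 3 (Ccr6, Cxcl9 and Cxcl10). The forms that are 1 base longer, which were searched first, gave other genes. The longer interferon form was found in 3 (Ccl19, Cxcl10 and Cxcl14). The longer NF-kB form was found in 6 (Ccr3, Ccr6, Cxcl1, Cxcl2, Cxcl3 and Cxcl10). Ccr3, Cxcl1, Cxcl2 and Cxcl3 matched only this longer NF-kB form, so the count depends on the form chosen.

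Among the monocyte attractants, Ccl2 and Ccl7 were lower in DMSO than in fresh cells. Ccl2 read 9.63 and 9.59 in 79-6, 9.02 and 8.54 in DMSO and 9.30 and 10.10 in fresh cells. It was 1.90-fold lower in DMSO than in fresh cells (-0.92 ± 0.26, adjusted p = 0.0435). With 1 array left out, this call held only without fresh replicate 1. Trend and robust settings, or only the arrays of these groups in the fit, were among the other settings that ended it. Ccl7 read 9.39 and 9.29 in 79-6, 8.40 and 8.54 in DMSO and 9.24 and 10.19 in fresh cells. It was 2.37-fold lower in DMSO than in fresh cells (-1.25 ± 0.26, adjusted p = 0.0149). The Ccl7 call was lost when either DMSO array was left out or with trend and robust settings.

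Both 79-6 arrays lay above both DMSO arrays for these 2 genes. The changes, 0.83 ± 0.26 for Ccl2 (adjusted p = 0.124) and 0.87 ± 0.26 for Ccl7 (adjusted p = 0.117), were not called with all arrays. With only the 4 arrays of these groups in the fit, adjusted p was 0.0410 for Ccl2 and 0.00734 for Ccl7.

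Ccl12, another ligand of Ccr2, read 5.91 and 5.98 in 79-6, 5.74 and 5.51 in DMSO and 6.33 and 6.77 in fresh cells, and neither DMSO array was above background. It was at least 1.62-fold lower in DMSO than in fresh cells, a bound set by the background level (adjusted p = 0.00495), and it was also lower in 79-6 than in fresh cells (-0.60 ± 0.15, adjusted p = 0.0231). The call in 79-6 was lost without either 79-6 array or fresh replicate 2 (0.0729 to 0.0880). Ccl8, a further monocyte attractant, spread more widely, with 8.60 and 8.26 in 79-6, 7.58 and 8.17 in DMSO and 8.13 and 9.25 in fresh cells, and was not called. Ccl11, an eotaxin that binds Ccr3, stayed between 7.41 and 7.59 on all arrays.

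Ccl24, the other eotaxin above background, read 6.72 and 6.94 in 79-6, 7.02 and 7.02 in DMSO and 7.69 and 8.22 in fresh cells. It was 1.92-fold lower in DMSO (-0.94 ± 0.16, adjusted p = 0.00713) and 2.19-fold lower in 79-6 (adjusted p = 0.00252) than in fresh cells. The cultured arrays all lay below the fresh ones.

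The ligands of Ccr1 divided. Ccl6, known from mouse macrophages, read 10.58 and 10.59 in 79-6, 10.38 and 10.55 in DMSO and 9.10 and 9.82 in fresh cells. Ccl9, its neighbour in the genome, read 9.65 and 9.56 in 79-6, 9.35 and 9.57 in DMSO and 7.94 and 8.82 in fresh cells. Both were lowest in fresh cells without overlap. Ccl6 was 2.01-fold higher in DMSO than in the fresh state (1.01 ± 0.20, adjusted p = 0.0131) and Ccl9 2.11-fold higher (1.08 ± 0.25, adjusted p = 0.0226). In 79-6 against fresh cells, Ccl6 was 2.19-fold and Ccl9 2.34-fold higher (adjusted p = 0.00645 and 0.0107). For both genes the calls between DMSO and fresh cells were lost when either DMSO array was left out or with trend and robust settings. The Ccl9 call in 79-6 against fresh cells was lost with trend and robust settings too. These genes changed in the direction of the macrophage and dendritic markers given above, whose part was not tested.

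Ccl3, Ccl4 and Ccl5, made by activated T cells, natural killer cells and macrophages, were not called in any comparison. Ccl3 read 11.94 and 12.34 in 79-6, 11.72 and 11.90 in DMSO and 10.98 and 11.79 in fresh cells. The values of Ccl4 were 7.22 and 7.06 in 79-6, 6.91 and 6.77 in DMSO and 6.79 and 7.20 in fresh cells. Ccl5 read 10.72 and 10.92 in 79-6, 10.31 and 10.35 in DMSO and 10.36 and 10.88 in fresh cells. Its change of 0.49 in 79-6 against DMSO had a 95% interval of 0.11 to 0.87 and an adjusted p of 0.146, or 0.0492 with only the 4 arrays of these groups in the fit.

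Among the neutrophil attractants of the 48 genes that bind Cxcr2, Cxcl2 came nearest to a call. It read 8.76 and 9.03 in 79-6, 7.87 and 8.09 in DMSO and 7.80 and 8.54 in fresh cells. Both 79-6 arrays were above all others. The change in 79-6 against DMSO was 0.92 ± 0.22 (adjusted p = 0.0684), and with only the 4 arrays of these groups in the fit adjusted p was 0.0158. Cxcl3 read 6.31 and 6.43 in 79-6, 5.77 and 6.15 in DMSO and 6.30 and 6.31 in fresh cells, and Cxcl1 read 7.08 and 7.25 in 79-6, 7.11 and 6.84 in DMSO and 7.09 and 6.98 in fresh cells. Neither was called.

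The last ligands above background were Cxcl16, the ligand of Cxcr6, and Cxcl17, a mucosal chemokine. Cxcl16 read 7.77 and 7.67 in 79-6, 6.98 and 7.45 in DMSO and 7.49 and 7.84 in fresh cells, with a change of 0.50 in 79-6 against DMSO (95% interval 0.10 to 0.90, adjusted p = 0.154). Cxcl17 read 6.36 and 6.55 in 79-6, 6.28 and 6.09 in DMSO and 6.12 and 6.18 in fresh cells. Neither passed the threshold in any comparison.

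Several ligands and their receptors changed in opposite directions in DMSO against fresh cells. Ccr9 was called higher and Ccl25 lower, Ccr2 higher with Ccl2, Ccl7 and Ccl12 lower, and Ccr4 higher with Ccl17 and Ccl22 lower. Cxcl13 was called higher and Cxcr5 lower, the latter below background. The pairs Cxcl12 with Cxcr4 and Ccl1 with Ccr8 were lower on both sides, and Ccr1 with Ccl6 and Ccl9 was higher on both sides. Other pairs were called on 1 side only. Ccr7 was higher with no call for Ccl19, Cxcl9 and Cxcl10 were lower with none for Cxcr3, and Ccl24 was lower with none for Ccr3. Genome neighbours likewise did not always move together. In the receptor cluster whose order is Ccr9, Cxcr6, Ccr1, Ccr1l1, Ccr3, Ccr2, the genes Ccr9, Ccr1 and Ccr2 were called higher in DMSO against fresh cells, Cxcr6 and Ccr3 were not called, and Ccr1l1 was not above background.

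Chemokine genes with other names were taken from lists. Of 5 other ligands, 1 was higher and 0 lower in 79-6 against DMSO, and 0 were higher and 2 lower in DMSO against fresh cells. At an unadjusted p under 0.05 these counts were 3 and 0, and 0 and 3. Pf4, a platelet and megakaryocyte chemokine, averaged 9.29 in 79-6, 7.61 in DMSO and 8.30 in fresh cells (79-6 against DMSO 1.68, adjusted p = 0.018). Xcl1, made by natural killer cells and activated T cells, averaged 9.48 in 79-6, 8.71 in DMSO and 10.13 in fresh cells (DMSO against fresh -1.42, adjusted p = 0.003). Xcl1 is also counted among the natural killer and innate lymphoid genes above. Ppbp, another platelet chemokine, averaged 9.22 in 79-6, 7.82 in DMSO and 7.62 in fresh cells and was called in 79-6 against fresh cells (1.60, adjusted p = 0.018). Cx3cl1, a membrane-bound chemokine, averaged 6.41 in 79-6, 6.27 in DMSO and 6.37 in fresh cells with no call. Its receptor Cx3cr1, known from monocytes and macrophages, was higher in 79-6 than in fresh cells (0.42, adjusted p = 0.039).

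Of 8 other chemoattractant receptors, 3 were higher and 0 lower in 79-6 against DMSO (5 and 0 at an unadjusted p under 0.05). S1pr1, the sphingosine phosphate receptor with which thymocytes leave the thymus, was 1.22 higher in 79-6 than in DMSO (adjusted p = 0.0057) and in DMSO it exceeded the fresh cells by 2.27 (adjusted p = 4.9e-05), both on the log2 scale. Its relative S1pr4 changed by 0.60 and 0.72. C5ar1, the complement C5a receptor of myeloid cells, was 0.71 higher in 79-6 than in DMSO (adjusted p = 0.049). Gpr183, a receptor for oxysterols, was lower in DMSO than in fresh cells (-2.31). A list of 5 genes held the atypical receptors Ackr1 to Ackr4, which take up chemokines without G protein signalling, and Pitpnm3. Of these, 0 were called by limma in any comparison (unadjusted p under 0.05: 2 higher in 79-6 against DMSO, 0 elsewhere). Ackr1 was above background on no array and Ackr3 only in 79-6.

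Downstream of the receptors, 3 of 19 genes for signalling and arrest were higher and 1 lower in 79-6 against DMSO. The regulators Rgs1 (0.79, adjusted p = 0.031) and Arrb2 (0.50, adjusted p = 0.021) and the migration factor Dock2 (0.36, adjusted p = 0.038) rose, and Rgs16, which shortens G protein signals, fell (-0.80, adjusted p = 0.01). In DMSO against fresh cells 5 were higher and 0 lower (8 and 2 at an unadjusted p under 0.05). Of 14 genes for chemokine processing, the neutrophil collagenase Mmp8 was the 1 called in 79-6 against DMSO (1.30, adjusted p = 0.02), and it was 4.03 higher in DMSO than in fresh cells. Mmp8 is also in the granulocyte and mast cell list, where it is the 1 gene counted as higher in 79-6 against DMSO. Mmp12, the macrophage elastase, exceeded its level in fresh cells by 1.77 in DMSO (adjusted p = 0.0108). Dpp4, which trims the amino end of several chemokines, was lower in DMSO than in fresh cells (-0.59, adjusted p = 0.0011).

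Other lists gave the following counts. Of 19 NF-kB target genes, 3 were higher and 0 lower in 79-6 against DMSO, and 3 were higher and 2 lower in DMSO against fresh cells. A list of 8 genes held the aryl hydrocarbon receptor gene Ahr and its targets. Of these, 5 were higher and 0 lower in 79-6 against DMSO, led by Cyp1a1 (3.66), Cyp1b1 (2.80) and Ahrr (2.73). In DMSO against fresh cells 1 was higher and 2 were lower, Ahr itself (-1.61) and the target Nqo1 (-1.34). The 13 T-lineage genes gave 0 calls in 79-6 against DMSO (limma; 1 higher and 4 lower at an unadjusted p under 0.05), with 7 higher and 4 lower in DMSO against fresh cells. For 10 B cell genes, 1 was higher in 79-6 against DMSO and 3 were lower in DMSO against fresh cells. For 15 genes of mesenchyme and endothelium, 1 was lower in 79-6 against DMSO, and 1 was higher and 4 lower in DMSO against fresh cells. Of 7 erythroid and platelet genes, 1 was higher in 79-6 against DMSO, and 2 were higher and 2 lower in DMSO against fresh cells.

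**Figure D5:**
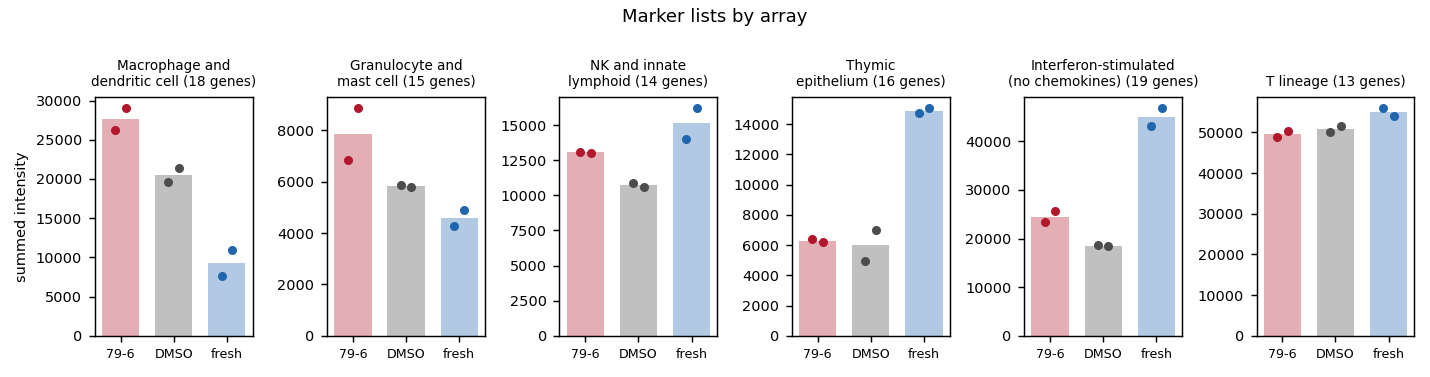
Summed intensity of 6 gene lists by group, 79-6, DMSO and fresh from left to right; bars are means of 2 arrays, points are arrays and each axis starts at 0. The macrophage and dendritic list of 18 genes is lowest in fresh cells, and the lists for thymic epithelium (16 genes) and interferon-stimulated genes (19) are highest there. A sum weighs the brightest genes of a list most, such as Lyz2 among the macrophage and dendritic genes in culture.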

How the data were processed

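The 6 arrays were 1-colour Affymetrix whole-transcript arrays, 2 per group. Per the labels' protocols, RNA was extracted with a PicoPure kit. RMA and oligo (an R package) are named, without versions, per the submitters' processing notes. The intensity values deposited by the authors are on a linear scale, from 8.75 to 25316. Since the tests had been planned for log2 values, the values were first put on that scale. The genome build is not given in the sources used here.

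Of 34760 probe sets, 21640 carry 1 gene symbol, 1321 carry several and 11799 none. A gene was read from its brightest probe set over all arrays (19937 genes); 954 genes, among them Ccl19 and Ccl25, had more than 1. All 48 chemokine and receptor genes matched RefSeq by Entrez identifier, and 0 symbols changed. A single limma model (limma 3.58.1, R 4.3.3, lmFit and eBayes) held the 3 group means of all 6 arrays, with 3 residual degrees of freedom and 4.24 from the prior. Tests were two-sided. P-values were adjusted over all genes (Benjamini-Hochberg), and 0.05 was the threshold. Errors are standard errors (SE). Folds are powers of 2 of these changes. Where the lower group was above background on no array they are bounds, and where neither group was on any array they are left out. Motifs were searched in RefSeq promoter windows. The fit was tested on simulated data.

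The alternatives were a replicate block, equal array medians, quantile normalization, eBayes with trend and robust settings, the mean of a gene's probe sets, only genes above background, only the arrays compared, other background levels, each array left out, and the macrophage and dendritic median as a covariate. Values per array are given for chemokine and receptor genes above background in at least 1 group or called in a comparison. From the other lists, up to 3 called genes with the largest change are named, besides Thy1, Pf4, Ppbp, Xcl1, Cx3cl1, Cx3cr1 and Ackr1 to Ackr4. Dock2, Clec9a and Pitpnm3 were named after their values were seen. The genes and lists were chosen with earlier results of these data known.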

Additional observations from a re-analysis of the deposited data

How the results depend on the processing

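Of the 48 genes, 6 were called in 79-6 against DMSO, and 0 of these calls were kept in every setting or in all 6 fits that left out 1 array. Of the 22 calls in DMSO against fresh cells 6 were kept in every setting and 13 with each array left out, and of the 18 in 79-6 against fresh cells 6 and 14. With 1 array left out, the count of higher calls ranged from 0 to 10 in 79-6 against DMSO, from 6 to 9 in DMSO against fresh cells and from 9 to 14 in 79-6 against fresh cells. The count of lower calls was 0 in the first, 8 to 14 in the second and 5 to 9 in the third. A group left with 1 array was assumed to vary like the others. Genes above background then numbered 39 to 40 in 79-6, 36 to 39 in DMSO, 37 to 40 in fresh cells and 39 to 40 in any group. With only the arrays compared in the fit, 10 genes were higher in 79-6 against DMSO in place of 6, while 3.16% of all genes were called in place of 4.36%. The count of lower calls in that comparison was 1 in place of 0, for Ccr2 with the replicate block (adjusted p = 0.0468) and for Cxcr4 with equal medians, quantile normalization, trend and robust settings, or only genes above background. With the macrophage and dendritic median as a covariate (added once the data had been seen), 0 were higher in 79-6 against DMSO, 2 higher and 7 lower in DMSO against fresh cells, and 1 higher and 2 lower in 79-6 against fresh cells. Of all genes, 0.196%, 1.82% and 0.201% were called in these comparisons. Under that covariate the change turned sign, with no call, for Ccl6 (-0.058 in DMSO against fresh, -0.45 in 79-6 against fresh), Ccl9 (-0.21 and -0.68 in the same comparisons), and in 79-6 against fresh for Ccr1 (-0.0555), Cxcr2 (-0.84) and Cxcr6 (-0.0302). The cause was not tested. With the 99th percentile as background, 28 genes were above it in 79-6, 29 in DMSO, 27 in fresh cells and 31 in any group, and with the median of all genes 25, 23, 24 and 26. Same-numbered arrays deviated from their group means with correlations of -0.074 (79-6 and DMSO), 0.0036 (DMSO and fresh) and 0.0948 (79-6 and fresh), so the numbers were not taken to pair arrays. With the replicate block 7 genes were higher in 79-6 against DMSO, 8 higher and 13 lower in DMSO against fresh cells, and 14 higher and 10 lower in 79-6 against fresh cells. The block called 3.88%, 18.4% and 24.3% of all genes in these comparisons. In the first of these Ccr4 (0.0466) and Cxcl2 (0.0211) gained a call and Cxcl10 (0.0599) lost it. The number of arrays and levels close to background limit what can be seen for the dimmest genes.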
